A study of Mus musculus with 9 samples.

Results

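Wild-type monocytic and polymorphonuclear myeloid-derived suppressor cells (Mo-MDSCs and PMN-MDSCs) from the spleens of the same kind of tumour-bearing mouse were compared gene by gene. The comparison used 6 of the 9 RNA-sequencing samples of the study, 3 of Mo-MDSCs and 3 of PMN-MDSCs, and the 11491 of 23284 gene symbols that reached 1 FPKM in at least 3 of these 6 samples. FPKM counts fragments relative to transcript length and to all mapped fragments. Both groups came from C57BL/6J mice with intact p16 and p21 genes (p16/p21 wild-type) that carried spindle cell tumours (SCT). The labels give an age of 3 weeks, whereas the study's methods describe animals injected with tumour cells as adults and spleens taken 3 weeks later. The cells were separated with magnetic beads, PMN-MDSCs as Ly6G+ cells and Mo-MDSCs as the Ly6G- cells that bound the Gr-1 antibody. All were tumour-educated splenic cells, so neither group stands for myeloid cells of a healthy animal. The remaining 3 samples were Mo-MDSCs from mice lacking p16 and p21 (DKO) and were not used in the fit.

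MDSCs are immature myeloid cells that expand during cancer and dampen T-cell responses. The polymorphonuclear subset shares its surface phenotype and granule programme with neutrophils, and the monocytic subset with inflammatory monocytes. Neutrophils make their granules in waves, with proteases of the primary granules first, then the secondary and tertiary granules, and receptors for chemoattractants and cytokines late in maturation. Monocytes leave the marrow through the chemokine receptor CCR2 and can become macrophages in tissues. In bulk RNA, fewer cells of a type and less RNA per cell cannot be told apart.

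Total FPKM ran from 711675 to 916642 in PMN-MDSCs and from 549976 to 618250 in Mo-MDSCs, and the number of genes at 1 FPKM or more from 11299 to 11418 and from 11322 to 11412. S100a9 alone took 6.64% to 11.4% of the total in PMN-MDSCs and 1.26% to 3.96% in Mo-MDSCs. The depth in reads is unknown from these values. Library numbers in the labels put replicate 1 of each group in a different series from replicates 2 and 3, and with replicates 2 and 3 only, 369 genes were higher in Mo-MDSCs and 737 in PMN-MDSCs. Nothing in the labels says that the 3 samples of a group came from separate animals, so the p-values measure the spread between these samples, which may be technical. Markers of other spleen cells were present in both groups. In all, 0 of the 10 B cell, 10 erythroid, 11 red-pulp macrophage and 7 plasma cell markers tested were called in limma. Of these 7, 0, 8 and 1 had an unadjusted p-value below 0.05, all of these higher in PMN-MDSCs. Their summed FPKM in PMN-MDSCs and in Mo-MDSCs ran from 1706 to 1981 and from 1243 to 1411 for B cells, from 3671 to 8185 and from 3599 to 7478 for erythroid cells, from 8865 to 9859 and from 5627 to 6769 for red-pulp macrophages, and from 1590 to 3458 and from 1158 to 2351 for plasma cells. In 4 other lists 1 marker each was called, higher in PMN-MDSCs, namely Cd24a of dendritic cells (-1.04), Cd3d of T cells (-1.01), Gp1ba of platelets (-1.16) and Siglec5 of eosinophils (-3.53). The calls of Cd24a, Cd3d and Gp1ba were lost under rescaled totals, that of Cd24a also without PMN-MDSC replicate 3 or Mo-MDSC replicate 1, and that of Cd3d when any sample except Mo-MDSC replicate 1 was left out. The sums for dendritic cells (494 to 582 and 247 to 324), T cells (76.1 to 95.0 and 53.3 to 64.1) and platelets (55.0 to 57.1 and 38.4 to 39.4) were also higher in PMN-MDSCs, and those for NK cells overlapped (7.51 to 11.3 and 7.26 to 10.9). Total FPKM was higher in PMN-MDSCs as well, so higher sums there need not be higher shares of the total. Under rescaled totals 2 dendritic cell markers were called higher in Mo-MDSCs and 0 in PMN-MDSCs. In the B cell, T cell and platelet lists 0 were then called in either direction. Cd24a, which granulocytes also express, made up most of the dendritic cell sum, at 502 and 246 FPKM, and without the fold threshold 3 of the 8 dendritic cell markers tested passed on the Mo-MDSC side. Of 11 basophil, mast cell and eosinophil markers 7 were under 1 FPKM in all 6 samples, Mcpt8, Fcer1a, Cpa3 and Epx among them, and the list summed to between 160.1 and 195.8 in PMN-MDSCs and between 107.9 and 140.4 in Mo-MDSCs. The part of these cells in the results below was not tested.

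In the comparison of the 2 subsets, 404 genes (3.52% of those tested) were more than 2-fold higher in Mo-MDSCs and 755 (6.57%) more than 2-fold higher in PMN-MDSCs, both at a Benjamini-Hochberg adjusted p-value below 0.05 from limma, 1159 (10.1%) in all. Without the fold threshold 4492 genes (39.1%) passed. The 3 samples of 1 group lay wholly above the other 3 for 3005 genes (26.2%) on the Mo-MDSC side and for 3029 (26.4%) on the PMN-MDSC side. Of the called genes this held for 404 of 404 and 752 of 755. Differences are log2(FPKM + 0.1) in Mo-MDSCs minus PMN-MDSCs, so positive values are higher in Mo-MDSCs, and this scale understates the change of low genes. The median standard error (SE) was 0.118. Genes higher in PMN-MDSCs were also at higher levels. They had a median of 38.0 FPKM in PMN-MDSCs, against 9.65 FPKM in Mo-MDSCs for the genes called on that side, and the mean in the higher subset reached 200 FPKM for 110 against 14 genes. Changes of over 8-fold numbered 55 in Mo-MDSCs and 112 in PMN-MDSCs, and changes of over 32-fold 17 and 35. PMN-MDSCs held 65.1% of the called genes on the deposited scale and 27.9% once every sample was rescaled to the same total FPKM, with 1142 genes then higher in Mo-MDSCs and 443 in PMN-MDSCs. That rescaling shifted the median difference of all genes tested from 0.01 to 0.447 on the log2 scale, and all 404 genes called higher in Mo-MDSCs and 443 of the 755 called higher in PMN-MDSCs were called the same way after it. At the threshold, Myo1g at 1.0041 was called and Arhgap33 at 0.9998 was not, and on the other side 0610010O12Rik at -1.0013 was called and Ebi3 at -0.9996 was not.

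**Figure D1:**
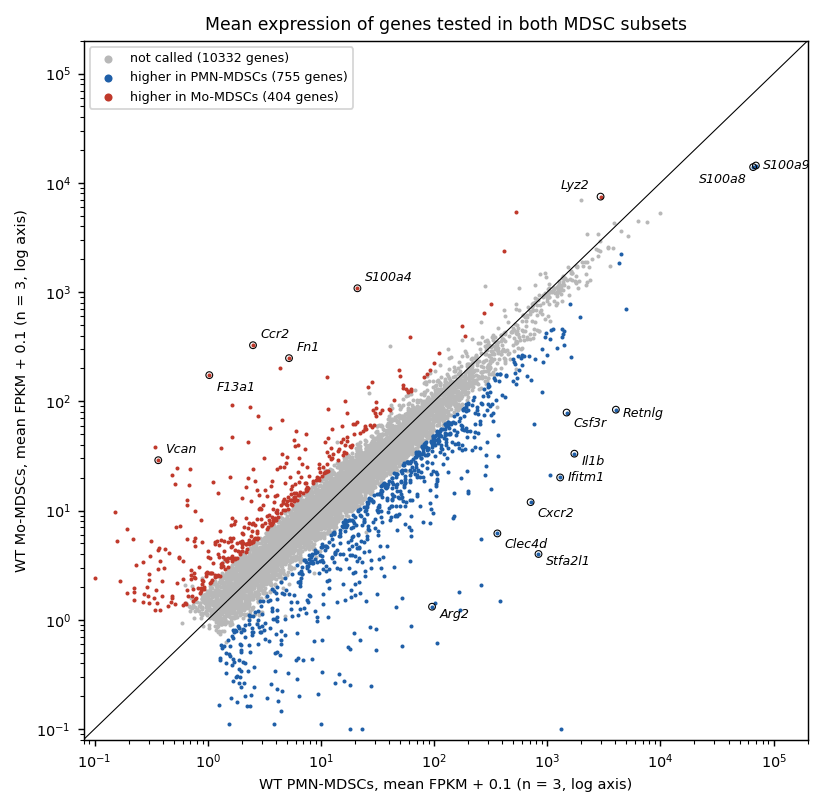
Mean FPKM + 0.1 of each of the 11491 genes tested in WT PMN-MDSCs (x axis) and WT Mo-MDSCs (y axis), both on log axes, n = 3 samples per group, with the line of equal values. The 755 genes higher in PMN-MDSCs (blue) reach further along the level axis than the 404 higher in Mo-MDSCs (red), and circles mark 16 genes described in the text.

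Most of the monocyte markers listed were higher in Mo-MDSCs. Of 12 monocyte markers 8, Ly6c2 among them, were higher in Mo-MDSCs and 1, Cd14, was higher in PMN-MDSCs (9 and 0 under rescaled totals). The list was chosen with earlier results of these data known, so its count is no independent check of identity. F13a1, which encodes the A subunit of coagulation factor XIII, stood at 1.13, 0.772 and 0.901 FPKM in PMN-MDSC replicates 1 to 3 and at 183, 167 and 171 FPKM in Mo-MDSC replicates 1 to 3. The lowest Mo-MDSC sample was thus far above the highest PMN-MDSC sample, and the log2 difference was 7.41 (SE 0.13, limma adjusted p = 6.32e-07). Ccr2, the chemokine receptor that draws monocytes from the marrow, had 2.36, 2.51 and 2.38 FPKM in PMN-MDSCs and 362, 281 and 336 FPKM in Mo-MDSCs, a log2 difference of 7.01 (SE 0.10, limma adjusted p = 3.97e-07). For Vcan, the gene of the matrix proteoglycan versican, PMN-MDSC samples held 0.281, 0.253 and 0.264 FPKM and Mo-MDSC samples 24.8, 29.2 and 32.4 FPKM (log2 difference 6.30, SE 0.14). All 3 of these genes kept the groups apart, and the PMN-MDSC mean was 0.537% of the Mo-MDSC mean for F13a1, 0.740% for Ccr2 and 0.923% for Vcan. Fn1, which encodes fibronectin, measured 4.63, 6.97 and 3.80 FPKM against 258, 234 and 253 FPKM (5.61, SE 0.20). Klf4, a transcription factor that monocytes need, measured 3.90, 2.90 and 2.41 FPKM against 34.1, 24.1 and 31.5 FPKM (3.25, SE 0.20). Smaller differences separated Ms4a6c, a membrane protein of monocytes (60.7 ± 6.85 and 386 ± 52.2 FPKM in PMN- and Mo-MDSCs, mean ± SD, n = 3, log2 difference 2.67), and Lyz2, the myeloid lysozyme (2959 ± 1214 and 7479 ± 1392 FPKM, 1.400). Ly6c2, part of what the Gr-1 antibody binds, differed by 1.58 and is no independent check of the sort. Csf1r, the receptor for M-CSF that defines the monocyte and macrophage lineage, did not pass the test. Its samples overlapped, at 745, 841 and 674 FPKM in PMN-MDSCs and 787, 853 and 750.5 FPKM in Mo-MDSCs, and the log2 difference was 0.09 (SE 0.11). Cd14, the lipopolysaccharide co-receptor, had 103, 92.1 and 100.3 FPKM in PMN-MDSCs and 47.3, 47.5 and 38.02 FPKM in Mo-MDSCs, the PMN-MDSC samples being higher (-1.16, SE 0.11), a call that was lost under rescaled totals and under quantile normalization.

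The largest differences on the Mo-MDSC side outside these markers, among genes of at least 20 FPKM, fell in several functions. S100a4, a calcium-binding protein tied to cell motility, rose from 21.6, 16.8 and 24.5 FPKM in PMN-MDSCs to 1142, 883 and 1226 FPKM in Mo-MDSCs (5.69, SE 0.17). Trem2, a lipid-sensing receptor of macrophages, was at 0.518, 0.681 and 0.104 FPKM in PMN-MDSCs and 21.5, 23.98 and 27.3 FPKM in Mo-MDSCs (5.72, SE 0.47), and Ace, the angiotensin-converting enzyme, at 2.26, 2.17 and 2.31 and 93.4, 74.8 and 99.9 FPKM (5.24, SE 0.12). For each of the 3 the lowest Mo-MDSC sample exceeded the highest PMN-MDSC sample. Arhgef37 and Arhgef10l, which carry exchange factor domains for small GTPases, differed by 6.86 and 5.46, Tppp3, a tubulin polymerization protein, by 5.81, Ptpro, a receptor tyrosine phosphatase, by 4.88, and Ahnak, a very large scaffold protein under the membrane, by 4.24. Nupr1, a stress-response chromatin protein, was 4.39 FPKM in PMN-MDSCs and 67.7 FPKM in Mo-MDSCs, and Hpse, which cuts heparan sulfate, 5.96 and 53.8 FPKM. The 2 largest values of all on this side belonged to small RNA rows and were unsteady. Snord32a, a small nucleolar RNA, was listed at 0 in 2 of the 3 PMN-MDSC samples and at 1602 FPKM in the other, beside 6479.9, 3133 and 6559 FPKM in Mo-MDSCs, and Mir719 was listed at 0 in 2 PMN-MDSC samples. The Snord32a call was lost when any sample other than PMN-MDSC replicate 1 was left out. Libraries of this kind are made from mRNA and not for small RNAs, and leaving out the 40 small RNA rows tested gave 401 and 755 calls, an alternative chosen after the data had been seen.

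On the PMN-MDSC side, all 11 neutrophil markers with a value were higher in PMN-MDSCs, as they were under rescaled totals, with 9 left under quantile normalization. This list too was chosen with earlier results of these data known and is no independent check of identity. Csf3r, the G-CSF receptor that drives granulocyte production, had 1347, 1523 and 1579 FPKM in PMN-MDSCs and 74.9, 70.4 and 91.1 FPKM in Mo-MDSCs, a log2 difference of -4.24 (SE 0.12, limma adjusted p = 3.13e-06). Il1b, the inflammatory cytokine interleukin-1β, had 1613, 1594 and 2005 FPKM in PMN-MDSCs and 33.8, 26.2 and 39.2 FPKM in Mo-MDSCs (-5.72, SE 0.16, limma adjusted p = 3.13e-06). Clec4d, a C-type lectin receptor for fungal and mycobacterial glycolipids, had 361, 309 and 417 FPKM and 6.13, 5.54 and 6.55 FPKM (-5.87, SE 0.12, limma adjusted p = 1.14e-06). The PMN-MDSC samples of these 3 genes were all above the Mo-MDSC samples with no overlap, and the Mo-MDSC mean was 5.31%, 1.90% and 1.68% of the PMN-MDSC mean. Retnlg, a resistin-like secreted protein of neutrophils, was at 4103, 3115 and 4907 FPKM in PMN-MDSCs and 64.6, 107 and 79.2 FPKM in Mo-MDSCs (-5.60, SE 0.23). Large differences also lay outside the marker list. Steap4, a metalloreductase of the plasma membrane, measured 173, 106 and 231 FPKM against 0.849, 0.836 and 1.72 FPKM (-7.11, SE 0.35), Asprv1, an aspartic protease, 157, 146 and 199.99 FPKM against 0.976, 1.24 and 2.82 FPKM (-6.69, SE 0.35), and Cd101, a surface protein of mature neutrophils, 77.8, 113 and 114 FPKM against 1.07, 1.03 and 1.86 FPKM (-6.19, SE 0.24). Dhrs9, a retinol dehydrogenase, differed by -6.67, Upp1, a uridine phosphorylase, by -4.99, and Irg1, the enzyme that makes itaconate, by -5.81, its means being 30.7 FPKM in PMN-MDSCs and 0.430 FPKM in Mo-MDSCs. Mir27a was listed at 0 in all 3 Mo-MDSC samples and at 1732, 1734 and 462 FPKM in PMN-MDSCs, again a small RNA row. Ly6g itself, the antigen of the sort, was not analysed here.

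The stefin genes formed the most uneven family between the subsets. Stefins are small inhibitors of cysteine cathepsins, and mice carry a cluster of type A stefin copies that neutrophils transcribe strongly. Of 15 stefin and cystatin symbols 11 were tested and 8 were higher in PMN-MDSCs, with a median log2 difference of -4.95, and the count of 8 was the same under rescaled totals and under quantile normalization. The promoters of 5 of these genes were chosen to be shown and then searched for a shared stretch of sequence. Each line gives the 100 bases before the annotated start in RefSeq (GRCm38.p6, chromosome 16), 5′ to 3′ on the gene's strand, and capitals mark the longest stretch, 13 bases, present in all 5.
Stfa2l1: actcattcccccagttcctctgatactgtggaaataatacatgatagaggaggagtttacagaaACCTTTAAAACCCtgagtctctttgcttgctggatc
Gm5483: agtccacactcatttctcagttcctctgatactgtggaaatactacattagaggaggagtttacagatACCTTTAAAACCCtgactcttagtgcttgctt
Stfa1: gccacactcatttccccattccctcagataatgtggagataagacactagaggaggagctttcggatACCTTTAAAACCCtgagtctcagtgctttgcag
Stfa2: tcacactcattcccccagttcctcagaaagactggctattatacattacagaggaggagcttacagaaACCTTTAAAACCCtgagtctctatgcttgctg
Stfa3: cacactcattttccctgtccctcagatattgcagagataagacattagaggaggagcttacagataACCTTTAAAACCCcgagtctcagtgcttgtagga
The stretch ended 19 to 23 bases before the start in these genes and occurred on the gene's strand in the same window of 8 of 32851 promoters in the RefSeq table (0.0244%), all 8 of them in the stefin cluster of chromosome 16, Gm5416 included. The 5 promoters shown are among these 8 by construction, since the stretch was taken from them. These windows lie at chr16:36156711-36156810, chr16:36184112-36184211, chr16:36277048-36277147, chr16:36408364-36408463 and chr16:36455393-36455492, the first 3 on the plus strand and the last 2 on the minus strand. Over the 300 bases of each promoter in the table, 250 before and 50 after the start, Stfa2 and Stfa2l1 were 90.5% identical, Stfa1 and Stfa3 81.0%, and Stfa3 and Gm5483 68.5%. Other called copies were less alike. Gm5416 was 60.1% to 65.3% identical to the 5 shown, and 2010005H15Rik 46.5% to 50.7% to these and Gm5416. Sequence likeness of this degree describes the copies and shows nothing about the factor that acts there.

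Stfa2l1 reached 795, 692 and 1023 FPKM in the PMN-MDSC samples and 2.69, 1.08 and 7.93 FPKM in the Mo-MDSC samples (-8.11, SE 0.62, limma adjusted p = 0.0001), so that the Mo-MDSC mean was 0.466% of the PMN-MDSC mean. Gm5483 reached 424, 307 and 414 FPKM against 2.25, 0.363 and 1.52 FPKM (-8.29, SE 0.55). Stfa1 was lower in level, at 33.7, 38.3 and 65.7 FPKM against 1.76, 0 and 1.85 FPKM (-5.95, SE 1.09), and Stfa3 lower again, at 13.4, 4.62 and 12.5 FPKM against 0.904, 0 and 0.763 FPKM (-4.39, SE 0.90). Stfa2, at 30.2, 12.7 and 26.3 FPKM, and Gm5416, at 27.7, 13.2 and 13.1 FPKM in PMN-MDSCs, were listed at 0 in all 3 Mo-MDSC samples. Mo-MDSC replicate 2 held the least of Stfa2l1, Gm5483, Stfa1 and Stfa3. Reads shared between copies this alike may have been divided among them by the authors' programs, so the level of each copy is uncertain while the sum is less so. Cystatins with a broad distribution did not pass the test, Cstb at 103 ± 7.43 and 92.2 ± 1.10 FPKM and Cst3 at 919 ± 113 and 931 ± 55.8 FPKM (mean ± SD, n = 3) in PMN- and Mo-MDSCs.

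S100 proteins, calcium-binding proteins of which S100A8 and S100A9 form calprotectin, split between the subsets. Of 9 tested, 4 were higher in PMN-MDSCs and 2 in Mo-MDSCs (2 and 2 under quantile normalization). S100a8 was the second and S100a9 the first gene of PMN-MDSCs by mean FPKM. S100a9 ran at 57807, 47262 and 104216 FPKM in PMN-MDSCs and at 11798, 6928 and 24489 FPKM in Mo-MDSCs (-2.38, SE 0.50, limma adjusted p = 0.00898), and S100a8 at 55609.6, 41819 and 100402 FPKM and 11979.6, 6472 and 23349 FPKM (-2.34, SE 0.52, limma adjusted p = 0.0109). The groups did not overlap, although replicate 3 was the highest and replicate 2 the lowest in each group for both genes, and both calls were lost under quantile normalization, without a filter on low values, with replicates 2 and 3 only and without variance moderation. The Mo-MDSC mean was still 20.6% of the PMN-MDSC mean for S100a9 and 21.1% for S100a8. S100a11 (4089, 4471 and 6359.6 against 617, 610.5 and 893 FPKM, -2.81, SE 0.22) and S100a6 (1126, 1241 and 1712 against 393, 341 and 428 FPKM, -1.79, SE 0.17) followed calprotectin. S100a4, described above, and S100a10, the partner of annexin A2 (49.7 and 171 FPKM, 1.78), went the other way.

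Granule genes were called in different directions by class. Of 12 primary granule genes tested, 5 were higher in Mo-MDSCs and 1, the tetraspanin Cd63, in PMN-MDSCs (8 and 0 under rescaled totals), the Cd63 call also being lost without PMN-MDSC replicate 3 or Mo-MDSC replicate 1. The 5 were Prtn3, Plac8, Elane, Lyz1 and Lyz2, the last also counted above as a monocyte marker. With replicates 2 and 3 only, and without variance moderation, only Plac8 of the 5 kept its call. Prtn3 (proteinase 3) had 3.44, 1.24 and 6.23 FPKM in PMN-MDSCs and 15.7, 16.2 and 23.4 FPKM in Mo-MDSCs (2.55, SE 0.52), and Elane (neutrophil elastase) 1.28, 0.240 and 1.67 and 5.18, 2.40 and 7.43 FPKM (2.30, SE 0.67). Both stayed low in level, and the Elane call was lost in 6 alternatives, among them quantile normalization and leaving out Mo-MDSC replicate 1 or 3. Mpo, the myeloperoxidase of the same granules, stood at 0.617 and 1.53 FPKM and passed only with the replicate number as a block (limma adjusted p = 0.00494, against 0.142 without it), under which 7 primary granule genes were called higher in Mo-MDSCs. Plac8, a small cysteine-rich protein of myeloid cells, was abundant, at 411 ± 80.6 FPKM in PMN-MDSCs and 2382 ± 429 FPKM (mean ± SD, n = 3) in Mo-MDSCs (2.54). Secondary and tertiary granule genes were called on the other side, with 13 of 26 higher in PMN-MDSCs and 0 in Mo-MDSCs in limma (12 and 2 under rescaled totals, 12 and 1 under quantile normalization). At an unadjusted p-value below 0.05, 1 was higher in Mo-MDSCs, Cybb, under the fold threshold. Mmp9 (gelatinase B) ran at 929, 965 and 1293 FPKM in PMN-MDSCs and 15.5, 15.3 and 31.8 FPKM in Mo-MDSCs (-5.74, SE 0.29), Mmp8 (neutrophil collagenase) at 366, 242 and 486 and 42.3, 50.2 and 55.2 FPKM (-2.84, SE 0.24), Adam8, a membrane protease, at 149.7 and 8.75 FPKM, Lrg1, a leucine-rich glycoprotein, at 761 and 62.3 FPKM, and Chi3l1, a chitinase-like protein, at 293 and 42.0 FPKM. Some of the most abundant secondary granule genes did not pass in the fit without the replicate block. Ngp (neutrophilic granule protein) had 4997, 2699 and 11179 FPKM in PMN-MDSCs and 3337, 2349 and 7617 FPKM in Mo-MDSCs (-0.45, SE 0.59), Lcn2 (lipocalin-2) 3056, 1994 and 5783 and 1395, 899 and 2851 FPKM (-1.10, SE 0.50), Camp (cathelicidin) 2752, 1639.6 and 5888 and 1996, 1341 and 4319 FPKM (-0.40, SE 0.56), and Ltf (lactoferrin) 1582, 776 and 3205 and 865, 575 and 1856 FPKM (-0.70, SE 0.59). Their groups overlapped, and within each group replicate 3 was the highest and replicate 2 the lowest for all 4 genes. Between samples of the same replicate number, PMN-MDSCs were higher in 3 of 3 pairs for each of the 4. With the replicate number as a block Lcn2 was called (pair differences of -1.13, -1.15 and -1.02, SE 0.07, limma adjusted p = 6.81e-05). Ngp, Camp and Ltf passed the adjusted p-value there (0.0128, 0.00484 and 0.00163 from limma) but not the fold threshold. Under the block 14 secondary and tertiary granule genes were called higher in PMN-MDSCs and 1, the ficolin gene Fcnb (1.16), in Mo-MDSCs. Cebpe, the transcription factor of secondary granule genes, followed the same order of samples, at 37.0, 24.2 and 75.2 FPKM and 29.0, 23.01 and 63.1 FPKM (-0.22, SE 0.49).

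**Figure D2:**
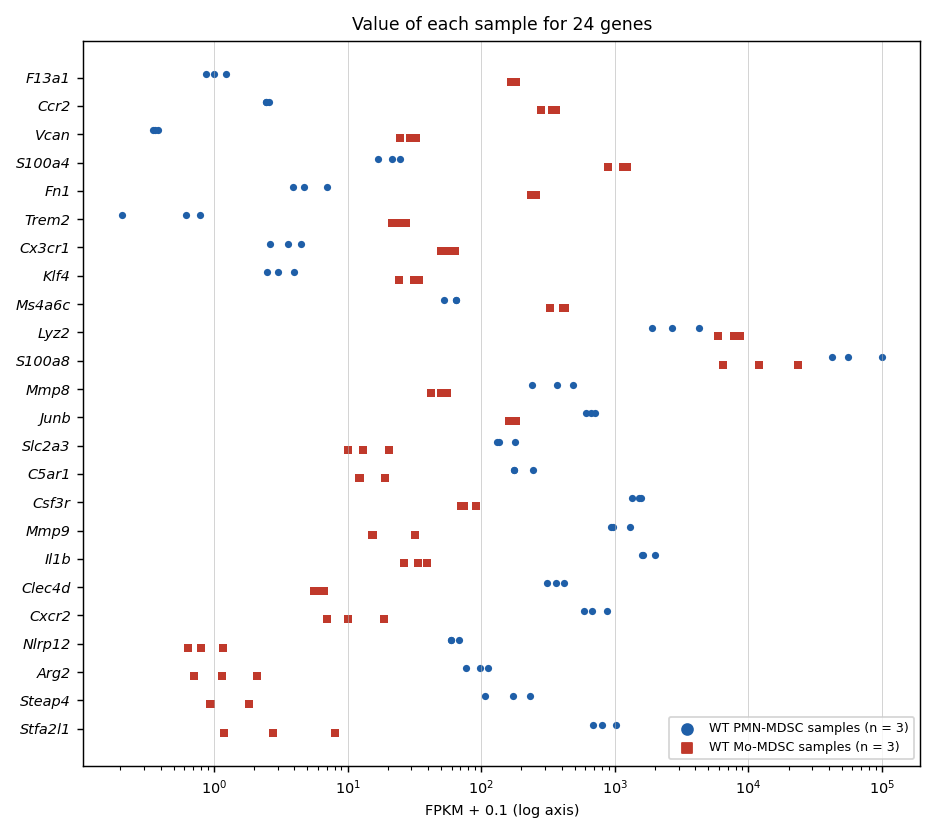
FPKM + 0.1 of each WT PMN-MDSC sample (blue circles, n = 3) and WT Mo-MDSC sample (red squares, n = 3) for 24 genes on a log axis. The first 10 genes, from F13a1 to Lyz2, have all Mo-MDSC samples to the right, and the last 14, from S100a8 to Stfa2l1, have all PMN-MDSC samples to the right.

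Chemokine receptors, which steer leukocytes along chemokine gradients, were called in both directions. Of 19 tested, 3 were higher in Mo-MDSCs (Ccr2 and Cx3cr1 among them) and 4 in PMN-MDSCs (Cxcr1, Cxcr2, Ccr1 and Cxcr4), and these counts held under rescaled totals and under quantile normalization. Cx3cr1, the fractalkine receptor, had 4.40, 3.50 and 2.54 FPKM in PMN-MDSCs and 63.1, 49.6 and 56.8 FPKM in Mo-MDSCs (4.01, SE 0.20, limma adjusted p = 1.96e-05). The groups were apart, as they were for Ccr2. Cxcr2, the receptor by which neutrophils follow CXC chemokines out of the marrow, had 673, 590.4 and 875 FPKM in PMN-MDSCs and 10.02, 6.87 and 18.6 FPKM in Mo-MDSCs (-6.003, SE 0.34), and its relative Cxcr1 24.4, 18.5 and 39.2 FPKM and 0.101, 0 and 0.340 FPKM (-6.98, SE 0.54). Ccr1, a receptor for CCL3 and CCL5, had 203, 160.0 and 239.9 FPKM against 13.96, 13.7 and 17.3 FPKM (-3.72, SE 0.16). Cxcr4, which holds cells in the marrow, was abundant in both subsets, at 227, 269.6 and 261 FPKM and 63.4, 64.5 and 71.2 FPKM (-1.92, SE 0.09). By level per transcript length, Cxcr2, Cxcr4 and Ccr1 led the called receptors in PMN-MDSCs, and Ccr2, Cxcr4 and Cx3cr1 in Mo-MDSCs. Ccr3, the eotaxin receptor, was at 133 and 106 FPKM and did not pass.

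Other chemoattractant and purine receptors were as divided, with 9 of 37 higher in Mo-MDSCs and 12 in PMN-MDSCs, an order that turned under rescaled totals (12 and 8) and under quantile normalization (10 and 9). On the Mo-MDSC side stood Cysltr1, a receptor for cysteinyl leukotrienes (0.426 and 6.91 FPKM, 3.74), Adora2b, an adenosine receptor (0.166 and 3.27 FPKM, 3.70), S1pr5, a sphingosine-1-phosphate receptor (0.263 and 4.26 FPKM, 3.59), and P2ry6, a receptor for UDP (2.16 and 19.7 FPKM, 3.17), most of them at low levels. On the PMN-MDSC side C5ar1, the receptor for the complement fragment C5a, had 177, 176 and 242 FPKM in PMN-MDSCs and 12.1, 12.3 and 18.9 FPKM in Mo-MDSCs (-3.79, SE 0.20). P2ry2, a receptor for ATP and UTP, had means of 9.08 and 0.884 FPKM (-3.22), and Mrgpra2b, a Mas-related receptor of neutrophils, of 18.4 and 1.51 FPKM (-3.64). Fpr2, a formyl peptide receptor and the most abundant of this list in PMN-MDSCs, had 256, 149 and 331 FPKM against 50.3, 34.6 and 67.2 FPKM (-2.25, SE 0.33), with no overlap.

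Receptors for cytokines and growth factors were more often higher in PMN-MDSCs (12 of 49) than in Mo-MDSCs (5 of 49), although under rescaled totals the counts were 8 and 9. Genes of interleukin-1 signalling were among them. Il1r2, a decoy receptor for interleukin-1, had 146, 112 and 179 FPKM in PMN-MDSCs and 6.49, 4.84 and 14.2 FPKM in Mo-MDSCs (-4.204, SE 0.38), Il1rap, the shared accessory chain, 69.5, 48.0 and 71.3 and 6.48, 4.198 and 6.60 FPKM (-3.43, SE 0.22), and Il18rap, the accessory chain for interleukin-18, means of 62.0 and 6.52 FPKM (-3.27). All samples of PMN-MDSCs were above those of Mo-MDSCs for the 3. Among ligands, Il1f9, an interleukin-36 cytokine, had 259, 218 and 305 FPKM against 4.74, 2.74 and 8.76 FPKM (-5.70, SE 0.38), and Il1rn, the interleukin-1 receptor antagonist, 80.5, 71.1 and 85.5 FPKM against 8.18, 6.31 and 8.53 FPKM (-3.36, SE 0.13). The agonist Il1b, its antagonist and its decoy receptor were thus all higher in PMN-MDSCs. The Mo-MDSC side held Met, the receptor for hepatocyte growth factor (0.274 and 4.45 FPKM, 3.67), Lifr, the receptor for leukaemia inhibitory factor (1.54 and 8.37 FPKM, 2.38), its partner Il6st (10.2 and 24.9 FPKM, 1.28) and Il10ra, a chain of the interleukin-10 receptor (59.0 and 124 FPKM, 1.07).

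Of 37 cytokine and growth factor genes tested, 9 were higher in PMN-MDSCs (8 under rescaled totals) and 1, Tnfsf13, the B-cell factor APRIL, in Mo-MDSCs (16.9 and 42.9 FPKM, 1.35). Csf1, the ligand of Csf1r, had 19.96, 24.3 and 22.4 FPKM in PMN-MDSCs and 2.03, 1.25 and 1.75 FPKM in Mo-MDSCs (-3.67, SE 0.18), and Tnfsf14, the TNF-family ligand LIGHT, means of 92.3 and 7.57 FPKM (-3.58). Of 13 chemokine ligands 3 were higher in PMN-MDSCs and 1 in Mo-MDSCs (3 and 2 under rescaled totals). Ccl9, a CC chemokine of mouse myeloid cells, had 2.81, 2.44 and 2.77 FPKM in PMN-MDSCs and 79.8, 67.0 and 71.9 FPKM in Mo-MDSCs (4.72, SE 0.10), with the groups far apart. Ccl6, a close relative of Ccl9, went the opposite way, at 775 and 242 FPKM (-1.68), as did Cxcl2, a ligand of CXCR2, at 6.77, 3.13 and 5.32 and 0.316, 0 and 0.356 FPKM (-4.21, SE 0.61), and Ccl4 at 5.10 and 1.63 FPKM (-1.63).

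Receptors for microbial patterns were called in both directions, 10 of 54 higher in Mo-MDSCs and 12 higher in PMN-MDSCs, and under rescaled totals these counts were 12 and 7. Apart from Trem2, the Mo-MDSC side held the lectin Clec10a (0.530, 0.927 and 0.565 and 10.6, 8.74 and 10.1 FPKM in PMN- and Mo-MDSCs, 3.71, SE 0.21), the scavenger receptor Msr1 (5.98, 5.58 and 5.65 and 49.1, 35.2 and 48.3 FPKM, 2.91, SE 0.14) and Naip5, a sensor of flagellin (7.37 and 25.1 FPKM, 1.76). The PMN-MDSC side held Nlrp12, a regulator of inflammatory signalling, at 59.0, 59.8 and 68.6 and 0.537, 0.703 and 1.08 FPKM (-6.21, SE 0.21), Trem1, an amplifier of inflammation, at 53.1, 56.2 and 73.0 and 3.04, 2.14 and 4.97 FPKM (-4.19, SE 0.29), and Clec4e, the partner of Clec4d, at 100.9, 66.3 and 109 and 11.7, 10.7 and 12.79 FPKM (-2.93, SE 0.19). The 3 samples of each subset were apart for all of these. Fc and paired immune receptors lay mainly on the PMN-MDSC side, 12 of 36 against 1, and still 7 against 2 under rescaled totals. Cd33 and the Cd300 family members Cd300ld and Cd300lf, receptors that signal through immunoreceptor motifs or adaptors, differed by -3.12, -2.60 and -2.32, with PMN-MDSC means of 196, 231 and 331 FPKM. The exception within the list was Fcgr2b, the inhibitory receptor for IgG, at 52.3, 43.8 and 51.7 FPKM in PMN-MDSCs and 196, 171 and 217 FPKM in Mo-MDSCs (1.98, SE 0.11). Cd300lg, named for the same family but not in the list, was also called higher in Mo-MDSCs (0.555 and 12.4 FPKM).

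Adhesion genes were called equally often in each direction, 6 of 37 (9 in Mo-MDSCs and 5 in PMN-MDSCs under rescaled totals). Matrix proteins led in Mo-MDSCs (Vcan, Fn1 and the elastin-associated Emilin1, 2.61 and 15.4 FPKM), with Itgb7, an integrin chain for gut homing (30.7 and 99.4 FPKM, 1.71). In PMN-MDSCs these were Ceacam10 (32.3 and 3.47 FPKM, -3.26), Selp (P-selectin, 4.35 and 0.495 FPKM, -2.96), the tetraspanin Cd9 (223 and 47.5 FPKM, -2.25) and Selplg, the ligand of selectins, at 619, 668 and 854 and 144, 162 and 160.5 FPKM (-2.19, SE 0.13). Of 53 genes of the cytoskeleton and of motility 12 were higher in PMN-MDSCs and 1, Ahnak, in Mo-MDSCs, and under rescaled totals 6 and 4. Zyx, a focal adhesion protein (537 and 165 FPKM, -1.70), Lcp1, the leukocyte actin-bundling protein (1405 and 439 FPKM, -1.67), and Gsn, the actin-severing protein gelsolin (229 and 78.4 FPKM, -1.55), were among the 12. In a list of 20 tested membrane proteins named for the Ms4a, Tmem176 and Ly6 families, 9 were called higher in Mo-MDSCs and 1 in PMN-MDSCs (12 and 0 under rescaled totals). The 1 was Cd24a, which belongs to none of these families. Without the fold threshold 9 and 6 of the list passed. Ms4a6b had 14.1, 9.37 and 10.2 FPKM in PMN-MDSCs and 187, 131 and 178 FPKM in Mo-MDSCs (3.88, SE 0.19), Ms4a6d means of 16.1 and 100.1 FPKM (2.63) and Tmem176b of 28.5 and 150.04 FPKM (2.48).

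Of 25 genes of complement and coagulation 5 were called higher in Mo-MDSCs and 1 in PMN-MDSCs (7 and 1 under rescaled totals). Without the fold threshold 7 and 8 passed, and the median difference was -0.15. Besides F13a1 these included F10 (coagulation factor X), at 1.49, 1.16 and 1.95 FPKM in PMN-MDSCs and 40.4, 49.1 and 50.9 FPKM in Mo-MDSCs (4.87, SE 0.19), F7 (factor VII), at 0, 0.259 and 0.111 and 1.06, 1.35 and 1.84 FPKM (2.92, SE 0.53), and Thbd (thrombomodulin), at 4.71 and 9.97 FPKM (1.07). No sample of PMN-MDSCs reached the lowest Mo-MDSC sample for F10 and F7. The gene called on the other side was the receptor C5ar1.

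Of 142 transcription factors tested, 7 were higher in Mo-MDSCs and 19 in PMN-MDSCs, and the balance turned to 11 and 8 under rescaled totals. After Klf4, the largest differences on the Mo-MDSC side were those of Nr4a1, an orphan nuclear receptor of patrolling monocytes, at 27.0, 32.1 and 27.7 FPKM in PMN-MDSCs and 79.9, 74.0 and 94.4 FPKM in Mo-MDSCs (1.51, SE 0.12), Cebpa, which starts the myeloid programme, at 13.8, 12.1 and 10.5 and 33.4, 28.5 and 27.1 FPKM (1.28, SE 0.13), and Ahr, the aryl hydrocarbon receptor, at 5.96 and 14.5 FPKM (1.27). Mxd1, an antagonist of MYC found in differentiating cells, was the most different on the PMN-MDSC side, at 247, 262 and 330.1 FPKM and 18.9, 18.8 and 26.1 FPKM (-3.72, SE 0.16). Cebpd, a C/EBP factor of late granulocytes, had 100.9, 99.99 and 115 FPKM and 18.9, 15.6 and 21.2 FPKM (-2.50, SE 0.12), Ets2 means of 26.2 and 6.66 FPKM (-1.96), and the AP-1 subunit Junb 665, 609 and 712 FPKM and 183, 162 and 168 FPKM (-1.95, SE 0.09). Each of these kept the subsets apart. Sfpi1, which encodes the master myeloid factor PU.1, was 584 ± 116 FPKM in PMN-MDSCs and 251 ± 32.3 FPKM in Mo-MDSCs (mean ± SD, n = 3, -1.21), and this call was lost under rescaled totals and under quantile normalization. Irf8, which directs progenitors to monocytes, was 102, 110.2 and 91.1 FPKM in PMN-MDSCs and 139.7, 141 and 134 FPKM in Mo-MDSCs, a log2 difference of 0.45 (SE 0.09, limma adjusted p = 0.00638) that stayed under the fold threshold. Gfi1, which directs them to neutrophils, was 3.01, 2.13 and 4.26 FPKM and 2.99, 2.32 and 4.22 FPKM (0.03, SE 0.30) and did not pass.

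**Figure D3:**
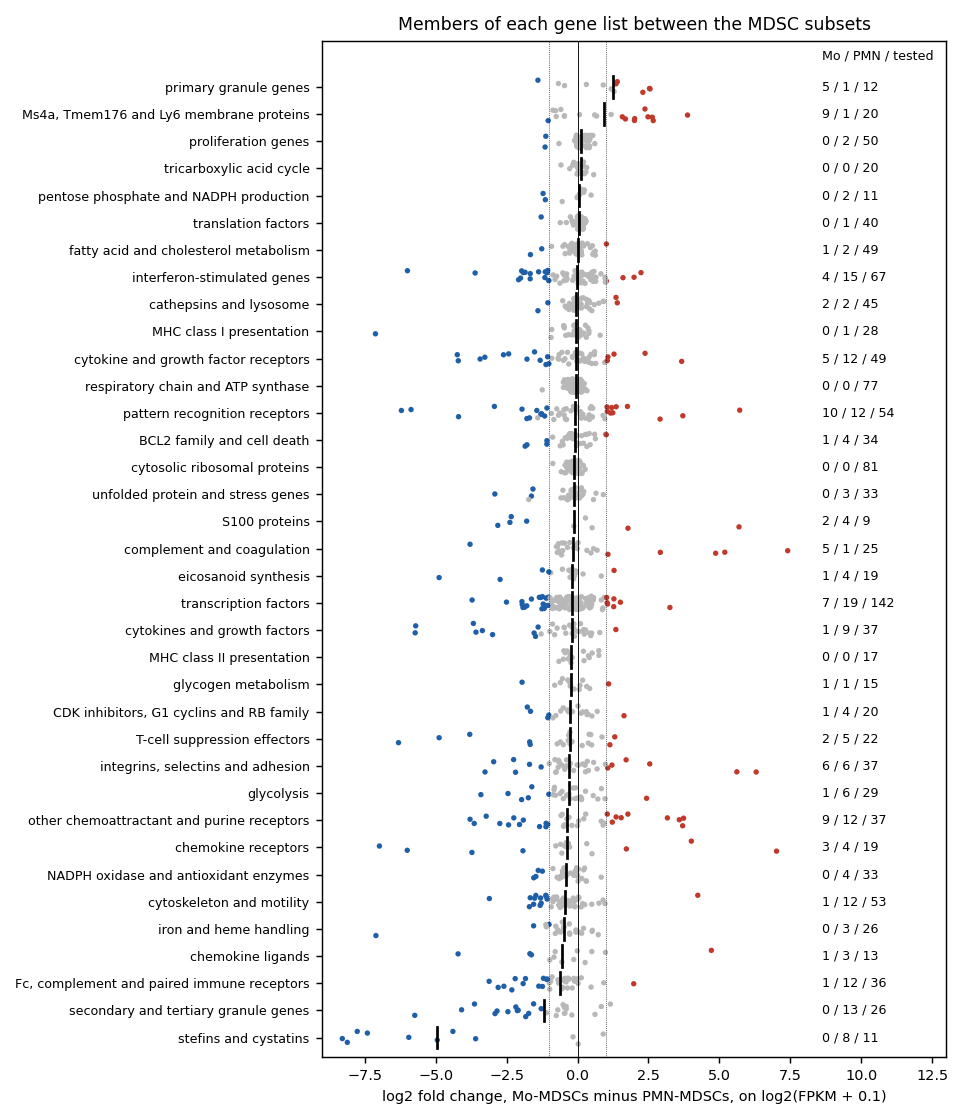
Log2 difference (Mo-MDSCs minus PMN-MDSCs) of every tested member of 36 gene lists, coloured red where higher in Mo-MDSCs, blue where higher in PMN-MDSCs and grey where not called, with a black bar at the median of each list and dotted lines at the 2-fold limits. Numbers at the right give the genes higher in Mo-MDSCs, higher in PMN-MDSCs and tested. Stefins and secondary granule genes lie furthest to the left, and under rescaled totals the median of all genes tested moves to the right, from 0.01 to 0.447.

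Of 29 glycolysis genes tested, 6 were higher in PMN-MDSCs, 4 of them transporters, and 1 in Mo-MDSCs, and under rescaled totals 5 and 4. Slc2a3, the high-affinity glucose transporter GLUT3, had 136, 131 and 180.0 FPKM in PMN-MDSCs and 12.9, 9.98 and 20.3 FPKM in Mo-MDSCs (-3.41, SE 0.26), Slc2a1 (GLUT1) 44.4, 34.3 and 49.7 and 13.9, 11.4 and 12.7 FPKM (-1.74, SE 0.15), and Slc2a6 (GLUT6) means of 79.7 and 20.1 FPKM (-1.97). Slc16a3, the lactate exporter MCT4, had 94.7, 97.4 and 126 and 16.8, 17.1 and 24.4 FPKM (-2.45, SE 0.17). All PMN-MDSC samples were above all Mo-MDSC samples for these transporters. Of the enzymes between, only Hk3, a hexokinase of myeloid cells (-1.01), and Pfkfb4, which sets the level of an activator of phosphofructokinase (114 and 37.4 FPKM, -1.61), passed both thresholds on the PMN-MDSC side in limma. Ldhb, the lactate dehydrogenase chain that favours pyruvate, was the gene called on the other side, at 1.37, 1.90 and 3.63 FPKM in PMN-MDSCs and 12.4, 8.86 and 15.3 FPKM in Mo-MDSCs (2.43, SE 0.35). Gapdh, a middle step often used as a control, differed by -0.86 (SE 0.15, limma adjusted p = 0.00463), under the fold threshold. Pygl, the glycogen phosphorylase of liver and leukocytes, had 393, 358 and 515 FPKM against 102, 90.9 and 134 FPKM (-1.96, SE 0.18). In the pentose phosphate list 2 of 11 genes were higher in PMN-MDSCs, Taldo1 (transaldolase, 976 and 419 FPKM, -1.22) and Pgd (6-phosphogluconate dehydrogenase, 344 and 156 FPKM, -1.13), and neither call held under rescaled totals or quantile normalization. In limma 0 of 20 tricarboxylic acid cycle genes and 0 of 77 respiratory chain and ATP synthase genes were called in either direction, with medians of 0.13 and -0.06 beside 0.01 over all genes tested. Without the fold threshold 6 and 8 of them passed the adjusted p-value, and 6 and 14 had an unadjusted p-value below 0.05. Under rescaled totals 1 and 0 were called.

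**Figure D4:**
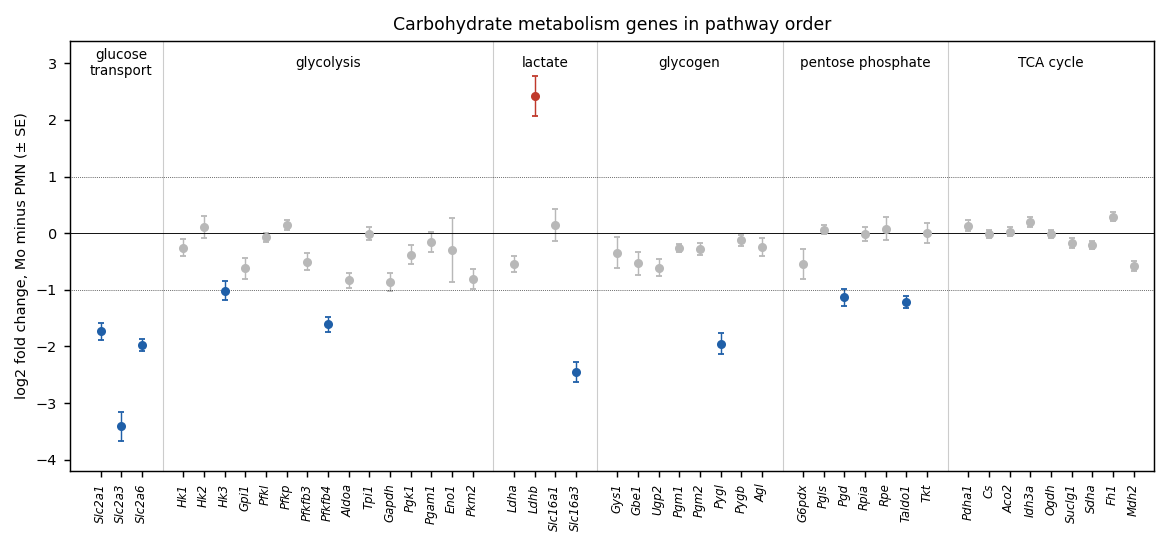
Log2 difference (Mo-MDSCs minus PMN-MDSCs, with SE from limma, n = 3 samples per group) of carbohydrate metabolism genes in the order of the pathways, blue where higher in PMN-MDSCs, red where higher in Mo-MDSCs and grey where not called, with dotted lines at the 2-fold limits. The called transporters lie between Slc2a3 at -3.41 and Slc2a1 at -1.74, and most enzymes lie within the limits. Under rescaled totals the median of all genes tested moves up, from 0.01 to 0.447.

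In lipid metabolism, 1 of 49 genes of fatty acid and cholesterol metabolism was higher in Mo-MDSCs and 2 were higher in PMN-MDSCs, Dgat1, which makes triglycerides (71.8 and 22.9 FPKM, -1.66), and Fabp5, a fatty acid carrier (109 and 45.2 FPKM, -1.26), an order that turned to 4 and 1 under rescaled totals. Of 19 eicosanoid genes 4 were higher in PMN-MDSCs and 1 in Mo-MDSCs (2 and 1 under rescaled totals). Alox5, which starts leukotriene synthesis, had 89.7, 93.0 and 129.98 FPKM in PMN-MDSCs and 13.4, 10.3 and 26.3 FPKM in Mo-MDSCs (-2.73, SE 0.33), and Ptgs2 (cyclooxygenase-2) 6.69, 2.96 and 3.27 FPKM and 0, 0.0377 and 0.0988 FPKM (-4.88, SE 0.42). PMN-MDSCs thus had the higher values of the leukotriene-forming enzyme and Mo-MDSCs those of the leukotriene receptor Cysltr1. Of 33 genes of the NADPH oxidase and of antioxidant defence 4 were higher in PMN-MDSCs, thioredoxin (Txn1, 568 and 193 FPKM, -1.54), the GTPase Rac2 (599 and 216 FPKM, -1.47), Txnip (686 and 262 FPKM, -1.39) and glutathione reductase (Gsr, 524 and 222 FPKM, -1.24), of which 2 were left under rescaled totals and 1 under quantile normalization. On the Mo-MDSC side 0 of this list were called on the deposited scale and 1 under each of these alternatives. Cybb, the catalytic subunit of the oxidase, was 231, 136 and 277 FPKM in PMN-MDSCs and 406, 291 and 417 FPKM in Mo-MDSCs (0.83, SE 0.27, limma adjusted p = 0.0462), under the fold threshold. Of 26 iron and heme genes the most different was Steap4, described above, and the ferritin heavy chain Fth1, at 4454 ± 521 FPKM in PMN-MDSCs and 2213 ± 136 FPKM (mean ± SD, n = 3) in Mo-MDSCs, lay at the threshold (-1.004) and was lost under rescaled totals, quantile normalization, a common median and without PMN-MDSC replicate 2 or 3 or Mo-MDSC replicate 1 or 3.

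Among genes by which MDSCs restrain T cells, 5 of 22 tested were higher in PMN-MDSCs and 2 in Mo-MDSCs (5 and 3 under rescaled totals). Arg2, the mitochondrial arginase, had 97.4, 77.1 and 113 FPKM in PMN-MDSCs and 0.610, 1.04 and 1.99 FPKM in Mo-MDSCs (-6.31, SE 0.37, limma adjusted p = 3.43e-05), so that the Mo-MDSC mean was 1.27% of the other. Arg1, the cytosolic arginase, was under 1 FPKM in every sample, at 0.269, 0.809 and 0.647 FPKM in PMN-MDSCs and 0.291, 0.468 and 0.736 FPKM in Mo-MDSCs, and was not tested, and the same was true of Nos2, the inducible nitric oxide synthase, at 0.603, 0.158 and 0.434 and 0.0244, 0.0197 and 0.0823 FPKM. Of the 2 arginases, therefore, Arg2 held nearly all of the FPKM in PMN-MDSCs. Slc7a11, the cystine transporter, had 7.11, 4.88 and 5.64 FPKM and 0.378, 0.239 and 0.371 FPKM (-3.80, SE 0.23), and Entpd1 (CD39) and Nt5e (CD73), which turn extracellular ATP into adenosine, differed by -1.67 and -1.69, with means of 127 and 39.9 FPKM for Entpd1 and of 1.82 and 0.496 FPKM for Nt5e. Both enzymes were higher in PMN-MDSCs, but Nt5e was low in level and its call was lost with a pseudocount of 1. The adenosine receptors Adora2a (1.91 and 4.53 FPKM, 1.22) and Adora2b, also low, were higher in Mo-MDSCs, and Adora3 was not among the called genes. Lgals1 (galectin-1) was 44.5, 58.3 and 56.3 FPKM in PMN-MDSCs and 122, 128 and 143 FPKM in Mo-MDSCs (1.31, SE 0.12), and Havcr2 (TIM-3) had means of 9.11 and 20.1 FPKM (1.14). Cd274, the ligand PD-L1, was nearly level, at 29.3, 29.0 and 30.8 FPKM and 26.2, 23.7 and 24.1 FPKM (-0.27, SE 0.07, limma adjusted p = 0.027), and did not reach the fold threshold.

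Interferon-stimulated genes were called in both directions, 4 of 67 higher in Mo-MDSCs and 15 higher in PMN-MDSCs, with 12 and 9 under rescaled totals. Ifitm1, a membrane protein that blocks entry of viruses, had 1182, 891 and 1828 FPKM in PMN-MDSCs and 14.8, 18.5 and 26.6 FPKM in Mo-MDSCs (-5.996, SE 0.30), the largest difference of the list, while its neighbour Ifitm2 had 1942 and 595 FPKM (-1.67). Slfn4, a Schlafen gene of myeloid cells, had means of 368 and 31.4 FPKM (-3.61), and Slfn1 of 317 and 74.8 FPKM (-2.08). The antiviral GTPases Mx1 (7.06, 6.43 and 5.62 and 31.1, 28.3 and 31.4 FPKM, 2.24, SE 0.10) and Mx2 (2.21, 2.43 and 1.90 and 7.08, 5.97 and 7.41 FPKM, 1.60, SE 0.14) and the DNA-sensing family gene Ifi205 (3.24 and 13.5 FPKM, 1.99) were higher in Mo-MDSCs. All Mo-MDSC samples of Mx1 and Mx2 were above those of PMN-MDSCs. In limma 0 of 17 genes of MHC class II presentation were called, 8 passed without the fold threshold, 4 in each direction and 12 had an unadjusted p-value below 0.05. Under rescaled totals 2 were called higher in Mo-MDSCs. Cd74, the invariant chain, was at 4494 ± 262 and 3589.9 ± 237 FPKM (mean ± SD, n = 3) in PMN- and Mo-MDSCs. Of 28 class I genes 1 was called, H2-Q10, at 224, 282 and 273 FPKM in PMN-MDSCs and 0.802, 2.88 and 2.28 FPKM in Mo-MDSCs (-7.12, SE 0.41). H2-Q10 belongs to a set of near-identical class I genes whose reads may be divided between copies, so its value is uncertain, and H2-K1 was at 1036 and 905 FPKM and H2-D1 at 2208 and 1172 FPKM, neither called.

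Of 50 proliferation genes 2 were higher in PMN-MDSCs, Kif23 and Lmnb1 (-1.14 and -1.12), both lost under rescaled totals, and the median of the list was 0.13. Cdkn1a, which encodes p21, had 2.95, 1.83 and 2.40 FPKM in PMN-MDSCs and 8.18, 6.46 and 8.04 FPKM in Mo-MDSCs (1.64, SE 0.19, limma adjusted p = 0.000667), with no overlap. Cdkn2a, the gene of p16 and p19Arf, was too low to be tested, at 0.355, 1.47 and 1.36 FPKM in PMN-MDSCs and 0.718, 0.772 and 0.432 FPKM in Mo-MDSCs, and the samples overlapped. Among the other inhibitors and antiproliferative genes, Cdkn2d (p19Ink4d) had 140.4, 126 and 201 FPKM and 41.6, 42.9 and 63.3 FPKM (-1.66, SE 0.22), Btg1 345, 262 and 325 FPKM and 109.7, 80.1 and 84.0 FPKM (-1.77, SE 0.15) and Cdkn1b (p27) 82.9 ± 11.99 FPKM and 41.1 ± 7.24 FPKM (mean ± SD, n = 3, -1.01), the call of Cdkn1b being lost under rescaled totals, quantile normalization, a pseudocount of 1 and without PMN-MDSC replicate 1 or Mo-MDSC replicate 2 or 3. The p21 gene was thus the gene of its list of 20 called higher in Mo-MDSCs, and 4 of the list were called higher in PMN-MDSCs (2 and 2 under rescaled totals). Cell death genes gave 4 of 34 in PMN-MDSCs and 1 in Mo-MDSCs, among them Fas, the death receptor (34.0 and 9.76 FPKM, -1.78), and Bnip3, a mitochondrial BCL2 family protein (25.8 and 7.09 FPKM, -1.85), and under rescaled totals 2 and 4. In limma 0 of 81 cytosolic ribosomal protein genes were called, with 8 passing without the fold threshold, all higher in PMN-MDSCs, 17 at an unadjusted p-value below 0.05, and a median of -0.12. Of 33 genes of the unfolded protein response and of stress 3 were higher in PMN-MDSCs (3 in each subset under rescaled totals), Chac1, which degrades glutathione (10.4 and 1.31 FPKM, -2.92), the transcription factor Ddit3, known as CHOP (55.7 and 17.8 FPKM, -1.63), and Sesn2 (32.2 and 10.8 FPKM, -1.57). Lysosomal genes gave 2 calls of 45 in each direction, and 6 in Mo-MDSCs and 0 in PMN-MDSCs under rescaled totals.

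Several of these families lie side by side in the genome. Positions of 11355 of the genes tested were taken from GENCODE M21 (GRCm38), and runs of at least 4 genes called in the same direction, each starting within 300 kb of the last, were listed without a test. There were 7 runs on the Mo-MDSC side with 31 genes and 22 on the PMN-MDSC side with 107 genes. The stefin run on chromosome 16 (36156811 to 36455392) held 8 called genes of 8 tested. On chromosome 11 (114922781 to 115181181) 6 of 7 tested genes were higher in PMN-MDSCs, 4 of them Cd300 genes, with Cd300e the exception at -0.34, and among the 6 Rab37 and Cd300lf overlap, so that their reads may be mixed. On chromosome 19 (11404770 to 11819403) 6 of 10 were higher in Mo-MDSCs, 5 of them Ms4a genes. The Ifi200 genes on chromosome 1 (173566283 to 174031810) gave 5 of 9 higher in Mo-MDSCs, from Ifi203 at 1.01 (not called without PMN-MDSC replicate 2 or Mo-MDSC replicate 1 or 3) to Mnda at 2.59. Some runs held genes called the other way within their span, such as 2 of 22 tested genes on chromosome 11 (69682846 to 70170834). The 2 pairs below, at the edge of the S100 and Trem runs, also went in opposite directions. S100a4 on chromosome 3 (90603771 to 90606045), with a difference of 5.69, ended 6.84 kb from S100a6 (90612882 to 90624181), at -1.79, the start of a run of 4 genes higher in PMN-MDSCs that also held S100a8, S100a9 and Pglyrp4. Trem2 on chromosome 17 (48346401 to 48354147), at 5.72, lay 19.4 kb from B430306N03Rik (48316141 to 48327024), at -1.25, the last of a run in which 6 of 7 tested genes, Trem1, Trem3 and Treml2 among them, were higher in PMN-MDSCs. No tested gene lay between either pair.

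**Figure D5:**
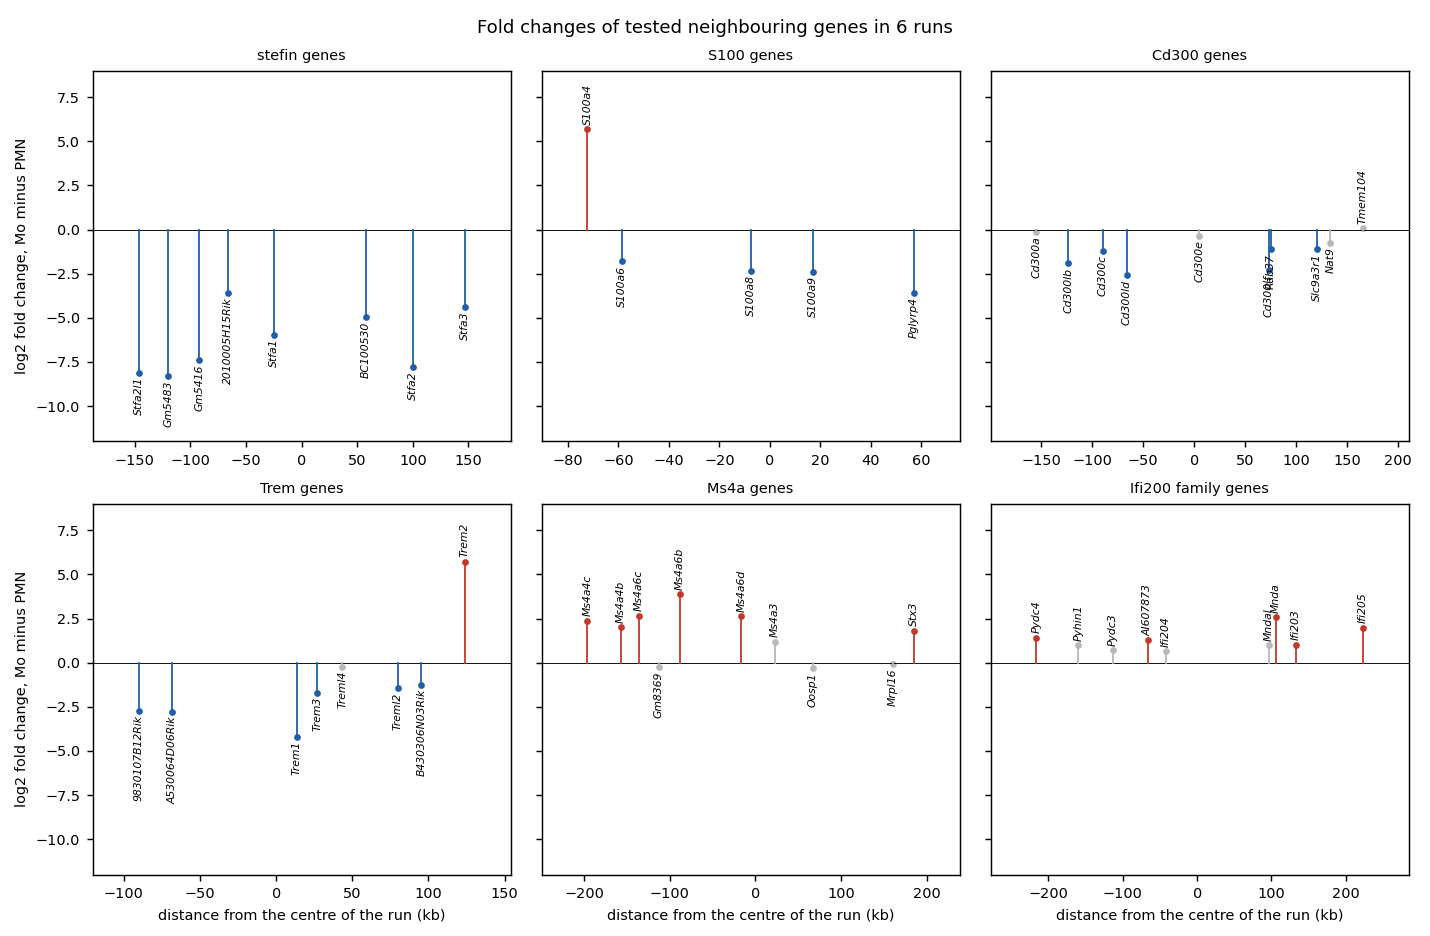
Log2 difference (Mo-MDSCs minus PMN-MDSCs) of the tested genes in 6 runs and 50 kb to either side, against the distance of each gene from the centre of its run in kb, red where higher in Mo-MDSCs, blue where higher in PMN-MDSCs and grey where not called. S100a4 and Trem2 point up at the edge of runs that point down, and the 8 stefin genes all point down.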

How the data were processed

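RNA was measured in 9 samples of splenic MDSCs, 3 per group, and groups and replicate numbers came from the labels. The authors prepared stranded mRNA libraries, sequenced single-end reads and mapped them to mm10 with TopHat2 2.0.13, Bowtie2 2.2.3 and SAMtools 0.1.19, and deposited FPKM values calculated with Cuffnorm 2.2.1 (versions as in the submitters' processing notes). The gene annotation, the use of strand in counting and the scaling by Cuffnorm are not given in the sources used here. The values were used as deposited, on which scale the upper quartiles of the tested genes ran from 30.6 to 35.3 FPKM over the 6 WT samples. FPKM was not tested as counts, and depth in reads is unknown.

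The genes fitted were those reaching 1 FPKM in 3 or more of 6 WT samples, on log2(FPKM + 0.1) with limma 3.58.1 (lmFit, eBayes with a trend) in R 4.3.3, with no covariate. A gene was called at a fold above 2 and a Benjamini-Hochberg adjusted p-value below 0.05 over all 11491 genes. An exact permutation test of 3 against 3 cannot go below 0.1 and was not used. The deviations of same-numbered PMN- and Mo-MDSC samples from their group means correlated across genes by 0.294, 0.483 and 0.200 for replicates 1, 2 and 3. Other pairs reached at most 0.0499, but deviations from a mean of 3 samples are not independent of each other. The labels do not give a pairing, and paired animals and a shared batch cannot be told apart here. Blocking on the replicate number was tried as an alternative fit. These correlations are across genes, which do not count as replicates.

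Genes named were the 6 markers Ccr2, F13a1, Vcan, Csf3r, Il1b and Clec4d, the 25 called genes per direction with the largest difference among those of at least 20 FPKM whose groups did not overlap, up to 4 called members per direction and the 2 most abundant members of each of 47 gene lists (1532 symbols, 5 symbols without a value and 23 found by an older symbol), markers of other cells, and 8 genes the study measured by other means. Adora2a, Cd300e, Cd300lg, Cebpe, Cstb, Cybb, Entpd1, Fcnb, Gfi1, H2-K1, Hk3, Irf8, Lcn2, Ltf, Ly6c2, Mmp8, Mnda, Mpo, Pfkfb4, Stfa3, Thbd, 2010005H15Rik and B430306N03Rik were named outside that rule, after their values were seen, as were the runs of neighbouring genes. A few genes that the rule names are counted in their lists but not reported here. Members and lists were chosen with earlier results of these data known. Lists are given by counts and medians with no set test. Promoters came from RefSeq (GRCm38.p6). Motif shares were not used, because only 305 of 404 and 595 of 755 called genes matched a promoter by symbol. Another pseudocount, filter, scaling, variance estimate or choice of samples was tried in 19 further fits, with 1 more, without small RNA genes, chosen after the data had been seen, and the fit was tested on simulated data. Tables and figures were made with Python 3.11.15, pandas 2.3.3, numpy 2.4.6, Biopython 1.88 and matplotlib 3.10.9.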

Additional observations from a re-analysis of the deposited data

How the results depend on the processing

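Rescaling every sample to the same total FPKM was the alternative that moved the counts by more than 1.5 times, to 1142 genes higher in Mo-MDSCs and 443 higher in PMN-MDSCs, from 404 and 755, and the cause was not tested. The other settings on these 6 samples and 11491 genes gave 282 to 421 and 639 to 770. Leaving out 1 sample at a time gave 387 to 442 genes higher in Mo-MDSCs and 680 to 788 higher in PMN-MDSCs. Blocking on the replicate number gave 413 and 770, and all 404 and 755 genes kept their call under the block. It added 24 calls, 7 of them list members, among them Lcn2, Mpo and Fcnb. Without a filter on low values they were 525 and 925, and with at least 1 FPKM in every sample 280 and 597. Of 183 called genes named under the rule, 160 were still called under rescaled totals and 160 under quantile normalization, 175 with a pseudocount of 1 in place of 0.1, and none changed direction in any alternative. Genes already called at over 2-fold had little room to change direction, so the lack of such changes says little. Of 1880 recomputed counts of list members 1731 stayed within 1.5 times, but counts that stayed at 0 were among these. On the deposited scale 4 lists had more calls in Mo-MDSCs, 31 had more in PMN-MDSCs and 12 were tied. Under rescaled totals these numbers were 17, 15 and 15, and under quantile normalization 8, 23 and 16. Depth in reads is unknown, so no counting error can be given for low genes such as Cdkn2a, Arg1 and Nos2, which did not pass the filter.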

Other observations

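Of the 1159 called genes 899 were in no list. The genes below were picked from them after their values had been seen, for their level and a known role. Their calls were not followed one by one through the alternatives. Rescaled totals moved the median log2 difference of all genes tested from 0.01 to 0.447. Calls close to the threshold on the PMN-MDSC side, such as Zfp36 and Gabarap, are therefore uncertain. On the PMN-MDSC side Srgn, the core protein of serglycin in granules, had 1675, 1299.7 and 1854 FPKM in PMN-MDSCs and 291, 206 and 259 FPKM in Mo-MDSCs (-2.67 on the log2 scale, Mo-MDSCs minus PMN-MDSCs, SE 0.18 from limma). Hdc, which makes histamine, had 305, 259 and 400.3 FPKM and 13.8, 8.08 and 25.6 FPKM (-4.47, SE 0.39), and every PMN-MDSC sample was above every Mo-MDSC sample. Of 11 basophil, mast cell and eosinophil markers 7 were under 1 FPKM in all 6 samples, Siglec5 was called higher in PMN-MDSCs (16.3 and 1.402 FPKM) and Ccr3 had 133 and 106 FPKM, and the part of such cells in the Hdc values was not tested. Socs3, an inhibitor of JAK and STAT signalling, had means of 216 and 35.5 FPKM (-2.59), Dusp1, a phosphatase of MAP kinases, of 290.4 and 25.5 FPKM (-3.53), and Zfp36, which destabilises cytokine mRNAs, of 597 and 266 FPKM (-1.17). The autophagy genes Gabarap (602 and 262 FPKM, -1.19) and Map1lc3b (242 and 87.9 FPKM, -1.45) and Fgl2, a fibrinogen-like protein secreted by suppressive cells (285 and 31.8 FPKM, -3.17), were also higher in PMN-MDSCs.

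On the Mo-MDSC side were Crip1, a LIM protein (274 and 645 FPKM, 1.24), Pld4, an endolysosomal nuclease (187 and 397 FPKM, 1.09), and Trex1, which degrades cytosolic DNA (59.3 and 122 FPKM, 1.04). Lipid genes were Apoc2, the activator of lipoprotein lipase (16.9 and 78.0 FPKM, 2.23), and Cyp27a1, a sterol hydroxylase (12.3 and 55.2 FPKM, 2.16). Saa3, an acute-phase protein of macrophages, had 5.65, 5.57 and 10.7 FPKM in PMN-MDSCs and 40.8, 77.3 and 30.8 FPKM in Mo-MDSCs (2.71, SE 0.38), with no overlap.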
